A study of Arabidopsis thaliana with 36 samples.

Results

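WRKY transcription factors are a large plant family named after the short protein motif with which they bind DNA. Their binding site, the W box, is common in the promoters of defence genes, and many WRKY genes carry it themselves, so that the family forms a network of activators and repressors that control one another. In Arabidopsis leaves its members are known for their parts in defence against bacteria, in the balance of salicylic acid (SA) and jasmonate (JA) signalling, and in senescence. Here the 56 WRKY genes of a fixed list of locus identifiers were followed among the 33557 genes of the deposited mRNA-seq tables. Of the 56 genes, 54 had at least 1 FPKM (fragments per kilobase of transcript, scaled to the number of mapped fragments) in at least 1 of the 12 groups and are described below, and 19280 genes of the whole tables met the same condition. WRKY14 and WRKY35 did not: their highest values were 0.161 FPKM, in Fsc at 2 dpi, and 0.175 FPKM, in Fcs at 2 dpi.

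The samples were infiltrated leaves of the F1 hybrid Fsc (Sei-0 as mother, Col-0 as father), the reciprocal hybrid Fcs (Col-0 as mother, Sei-0 as father), and the 2 inbred parents, the accessions Sei-0 and Col-0. All plants were 4 weeks old, grew under 8 h of light a day and received 100000 c.f.u. per ml of the virulent bacterium Pseudomonas syringae pv. tomato (Pst) DC3000, so no uninfected leaves are among the groups compared. Leaves were taken 1, 2 and 3 days post infiltration (dpi), with 3 libraries for each of the 12 groups and about 30 leaves in a library. The tables give 1 pooled FPKM value for each group, so they hold no spread between libraries, no SD or test stands beside any value, and a difference is counted only by its size: at least 1.5-fold in FPKM + 1. A gene is called hybrid-high where Fsc and Fcs each reached 1.5-fold over Sei-0 and over Col-0 on that day, and hybrid-low where all 4 ratios reached 1.5-fold in the other direction. The tables hold no read counts, so the precision of a value cannot be computed from them. As these are whole leaves, fewer cells of a type and less RNA in each cell cannot be told apart.

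The groups were alike in scale, with a median log2 ratio to Col-0 over all 19280 genes between -0.02 and 0.00. Leaf genes were abundant in every group: the summed FPKM of the 3 mesophyll markers RBCS1A, CAB1 and RCA lay between 14694 and 28065 in Fsc, 12871 and 26260 in Fcs, 12503 and 21914 in Sei-0, and 14119 and 37882 in Col-0. The 5 markers of trichomes, flowers and seeds stayed at or below 0.828 FPKM, and the seed markers CRA1 and OLEO1 and the petal gene AP3 were listed at 0 in some groups. The 11 markers of other tissues summed to between 131.5 and 152.4 FPKM in Fsc, 128.6 and 135.9 in Fcs, 127 and 145 in Sei-0, and 105 and 147 in Col-0. Among these 11 the root marker PYK10 was hybrid-low at 2 and 3 dpi, as the guard cell marker KAT1 was at 3 dpi. The other guard cell marker, FAMA, was not hybrid-low at 3 dpi.

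Before the values, the promoters of 6 members are shown in which the W box stands close to the gene. The W box was searched as TTGACC or TTGACT on either strand. Within the 1000 bases before the annotated start it was found at least 1 time in 46 of the 54 members (85.2%) and in 67.3% of 27444 protein-coding genes, and at least 2 times in 32 members (59.3%) and in 33.1% of those genes. Within 250 bases the counts were 20 of 54 members (37%) and 28.4% of all genes, and at least 2 W boxes stood there in 10 members (18.5%) and in 6.18% of all genes. The windows below are the 250 bases before the start of WRKY29, WRKY64 and WRKY72, which were hybrid-high at 1 dpi, of WRKY62, which was hybrid-low at 2 and 3 dpi, and of the camalexin regulator WRKY33 and the senescence regulator WRKY75. They come from the RefSeq TAIR10.1 genome, read 5′ to 3′ on the strand of the gene, and capitals mark the W boxes.
WRKY29 (chr4:12291382-12291631, plus strand): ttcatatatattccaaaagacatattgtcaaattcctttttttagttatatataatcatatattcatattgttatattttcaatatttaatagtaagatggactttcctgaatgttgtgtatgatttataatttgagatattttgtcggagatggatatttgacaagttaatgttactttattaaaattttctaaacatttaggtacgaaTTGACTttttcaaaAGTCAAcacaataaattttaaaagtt
WRKY64 (chr1:24833268-24833517, plus strand): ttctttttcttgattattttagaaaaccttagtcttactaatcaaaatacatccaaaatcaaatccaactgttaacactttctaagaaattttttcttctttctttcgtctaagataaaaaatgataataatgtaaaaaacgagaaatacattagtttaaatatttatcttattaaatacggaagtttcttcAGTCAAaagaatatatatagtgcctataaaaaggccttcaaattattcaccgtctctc
WRKY72 (chr5:4904040-4904289, plus strand): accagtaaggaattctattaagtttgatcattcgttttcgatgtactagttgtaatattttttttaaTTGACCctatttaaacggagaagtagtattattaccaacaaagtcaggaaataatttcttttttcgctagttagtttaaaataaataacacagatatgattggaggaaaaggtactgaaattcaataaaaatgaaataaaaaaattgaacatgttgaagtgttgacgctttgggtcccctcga
WRKY62 (chr5:352096-352345, minus strand): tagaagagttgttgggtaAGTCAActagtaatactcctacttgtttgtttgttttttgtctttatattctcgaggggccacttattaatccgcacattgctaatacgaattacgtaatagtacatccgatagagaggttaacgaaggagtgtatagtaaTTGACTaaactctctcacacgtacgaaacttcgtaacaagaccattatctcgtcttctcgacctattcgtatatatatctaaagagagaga
WRKY33 (chr2:16107985-16108234, plus strand): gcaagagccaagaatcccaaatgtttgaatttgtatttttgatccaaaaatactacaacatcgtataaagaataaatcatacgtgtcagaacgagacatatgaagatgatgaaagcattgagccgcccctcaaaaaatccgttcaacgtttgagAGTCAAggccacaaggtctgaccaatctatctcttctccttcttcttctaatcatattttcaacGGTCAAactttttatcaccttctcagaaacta
WRKY75 (chr5:4151202-4151451, minus strand): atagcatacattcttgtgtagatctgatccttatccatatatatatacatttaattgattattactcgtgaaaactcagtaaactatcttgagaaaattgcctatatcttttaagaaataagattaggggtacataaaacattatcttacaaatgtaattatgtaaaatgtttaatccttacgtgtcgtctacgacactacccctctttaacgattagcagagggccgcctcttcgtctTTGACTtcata

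Counting back from the base before the gene as -1, WRKY29 has a facing pair of W boxes at -40 and -26, and the nearest W box of WRKY75 begins at -11. WRKY62 has boxes at -232 and -91, on opposite strands. WRKY33 has 4 within 1000 bases, all of them read on the opposite strand, and 2 of these are in the window shown. WRKY30 had the most in 250 bases, with 3, whereas WRKY2, WRKY27, WRKY38, WRKY42, WRKY57, WRKY59, WRKY65 and WRKY70 had none of these letters in 1000 bases. The share with at least 1 W box in 1000 bases was 9 of 10 among the hybrid-high members of 1 dpi and 37 of 44 (84.1%) among the other members, and in 250 bases it was 3 of 10 against 17 of 44 (38.6%). A match describes the letters of a window and does not show that a protein binds there.

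**Figure D1:**
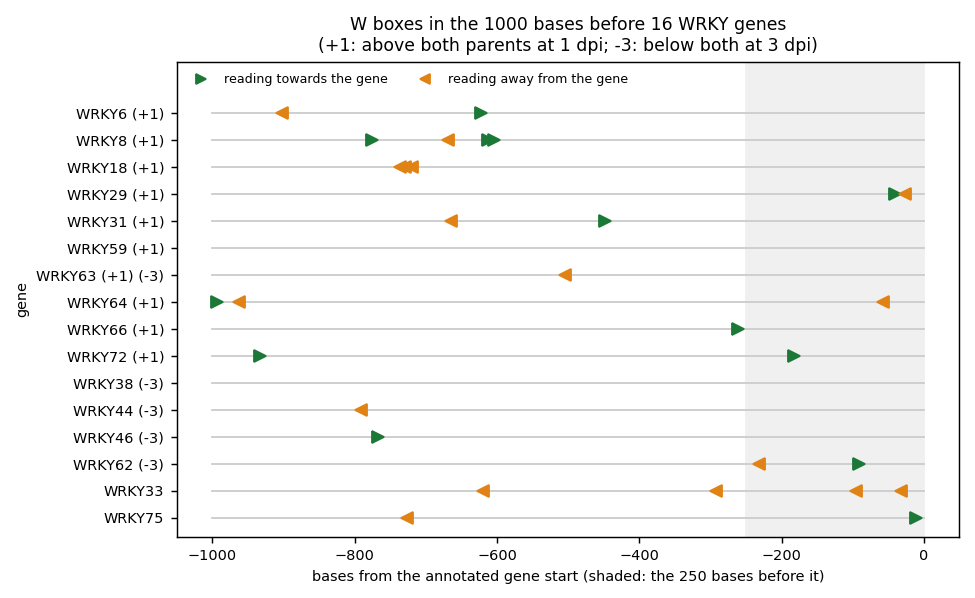
W boxes in the 1000 bases before 16 WRKY genes, by their distance in bases from the annotated start; triangles point right for boxes on the strand of the gene and left for boxes on the other strand. Genes marked +1 were hybrid-high at 1 dpi and those marked -3 hybrid-low at 3 dpi; 9 of the 10 genes marked +1 have at least 1 box, and 3 have one in the shaded 250 bases.

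By its summed FPKM the family was most abundant in the hybrids at 1 dpi and least abundant there at 3 dpi, although Fcs was then close to Col-0. The summed FPKM of all members made up 0.425% of all FPKM in Fsc and 0.442% in Fcs at 1 dpi, against 0.296% in Sei-0 and 0.169% in Col-0. At 2 dpi the shares were 0.244% in Fsc and 0.3% in Fcs, against 0.312% in Sei-0 and 0.196% in Col-0, and at 3 dpi 0.137% in Fsc and 0.165% in Fcs, against 0.221% in Sei-0 and 0.17% in Col-0. WRKY70 alone held between 21.1% and 34% of the family's sum in every group, and the 5 most abundant members between 50% and 63%. The median member had 16.8 FPKM in Fsc and 18.0 FPKM in Fcs, against 16.6 FPKM in Sei-0 and 9.76 FPKM in Col-0 at 1 dpi. At 3 dpi it had 10.6 in Fsc and 11.7 in Fcs, against 15.6 in Sei-0 and 15.6 in Col-0. The mean of the hybrids relative to the mean of the parents (the mid-parent value) had a median over the members of 0.57 on the log2 scale at 1 dpi, 0.13 at 2 dpi and -0.36 at 3 dpi. Over all 19280 genes the same median was -0.01, -0.02 and -0.03.

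At 1 dpi, 10 of 54 members (18.5%) were hybrid-high, beside 3.76% of all genes, and none was hybrid-low, beside 5.33% of all genes. The 10 were WRKY6, WRKY8, WRKY18, WRKY29, WRKY31, WRKY59, WRKY63, WRKY64, WRKY66 and WRKY72. At 2 dpi WRKY7, WRKY29, WRKY59 and WRKY72 were hybrid-high (4 of 54, 7.41%, beside 1.75% of all genes) and WRKY62 was hybrid-low (1 of 54, 1.85%, beside 2.15%). At 3 dpi none was hybrid-high, beside 4.01% of all genes, and WRKY38, WRKY44, WRKY46, WRKY62 and WRKY63 were hybrid-low (5 of 54, 9.26%, beside 5.82%). Both hybrids were compared with the same 2 parental values, so their calls are not independent of each other. At 1 dpi the members nearest the threshold were WRKY64 and WRKY6 inside it, with a smallest ratio of 1.59 each, and WRKY50 with 1.48 outside it. At 3 dpi WRKY44, with 1.53, was just inside and WRKY40, with 1.47, just outside.

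Counted without a minimum fold, the members shifted in the same way. At 1 dpi both hybrids lay above both parents for 30 of 54 members (55.6%, beside 24.6% of all genes) and below both for 5 (9.26%, beside 25%). At 2 dpi the counts were 14 above (25.9%, beside 18.7%) and 8 below (14.8%, beside 20.2%). At 3 dpi they were 8 above (14.8%, beside 29.5%) and 27 below (50%, beside 30.9%). For 16 members (29.6%, beside 8.46% of all genes) both hybrids were above both parents at 1 dpi and below both at 3 dpi: WRKY2, WRKY6, WRKY8, WRKY33, WRKY38, WRKY39, WRKY40, WRKY46, WRKY48, WRKY50, WRKY55, WRKY62, WRKY63, WRKY64, WRKY70 and WRKY75. The opposite pattern occurred in 0 members, beside 7.29% of all genes.

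**Figure D2:**
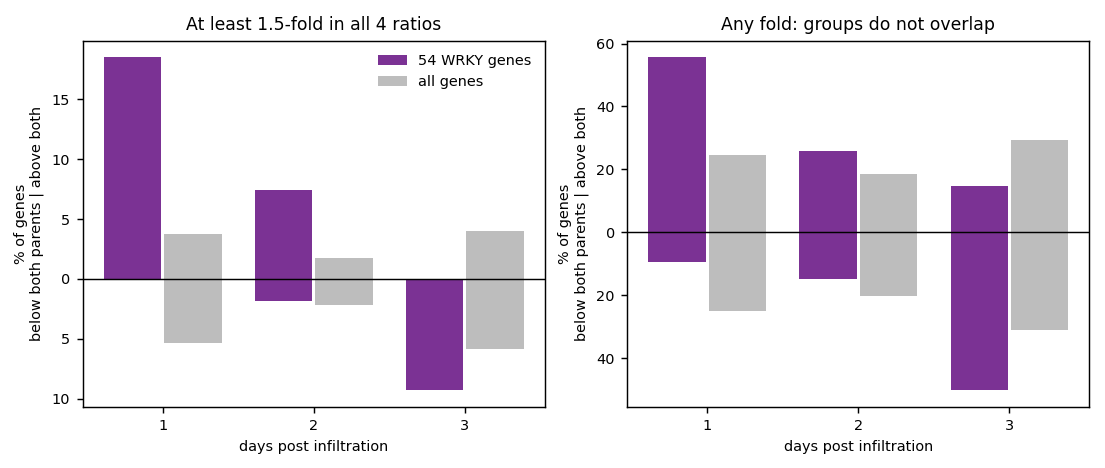
Share of genes in % for which Fsc and Fcs lay above (upward bars) or below (downward bars) both parents at 1, 2 and 3 dpi, for the 54 WRKY genes (purple) and all 19280 genes (grey); left, at least 1.5-fold in all 4 hybrid-to-parent ratios, and right, at any fold. WRKY genes lay above both parents in 18.5% of cases at 1 dpi and in 0 at 3 dpi on the left, and in 55.6% and 14.8% on the right.

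The structural groups of the family, defined by the number of WRKY domains and the form of the zinc finger, did not share the shift evenly at 1 dpi. The median log2 ratio of the hybrids to the mid-parent value was 1.04 in the 6 members of group IIb, 0.94 in the 3 of IIa, 0.75 in the 10 of IIc, 0.60 in the 13 of III, 0.23 in the 6 of IId, 0.13 in the 5 of IIe and 0.01 in the 11 of group I. At 1 dpi 3 of 6 members of IIb and 3 of 13 of III were hybrid-high, beside 3.76% of all genes. Group I, whose proteins carry a pair of WRKY domains, had 0 of 11, which with so few members does not set it apart from all genes. At 3 dpi the medians were -0.31 in IIb, -0.56 in IIa, -0.62 in IIc, -0.52 in III, -0.19 in IId, 0.22 in IIe and -0.35 in group I. These differences between structural groups were not tested.

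**Figure D3:**
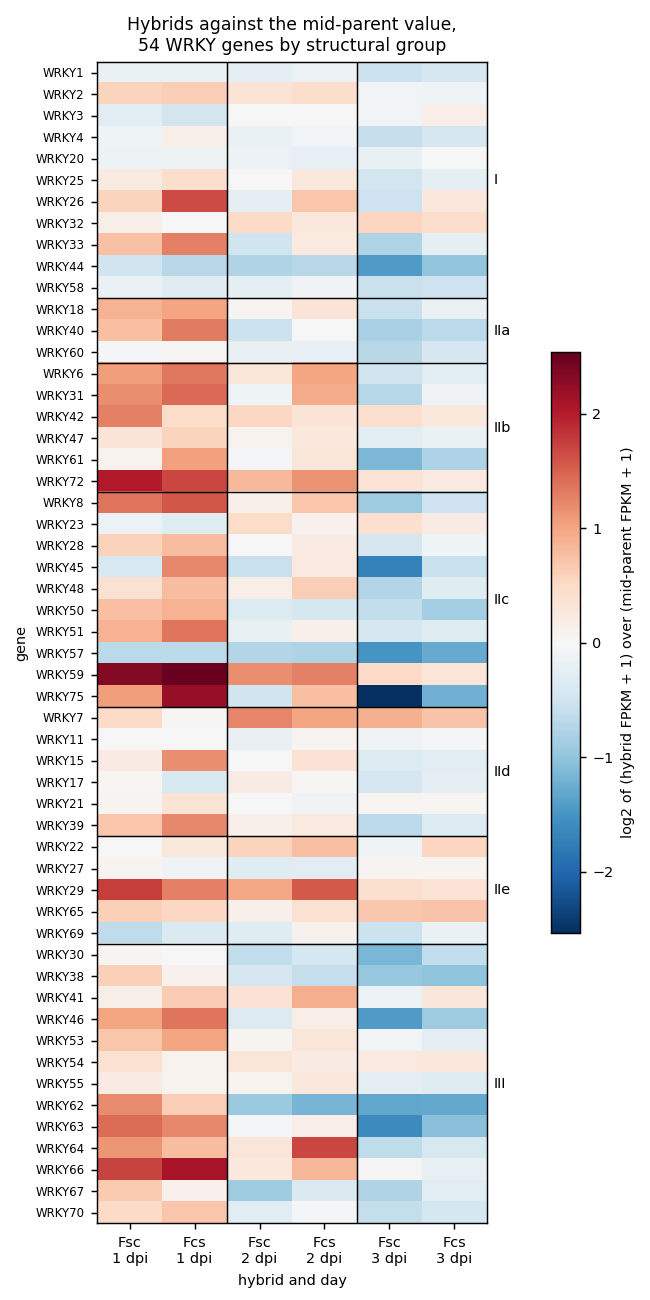
log2 ratio of each hybrid to the mid-parent value, on FPKM + 1, for the 54 WRKY genes in rows, grouped by structural group (I to III, at the right), and for Fsc and Fcs at 1, 2 and 3 dpi in columns; red is above and blue below the mid-parent value. The columns of 1 dpi are mostly red, the median being 0.48 for Fsc and 0.62 for Fcs, and those of 3 dpi mostly blue, the median being -0.52 for Fsc and -0.24 for Fcs.

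WRKY70 and WRKY54 are related group III factors that respond to SA, limit its synthesis and delay leaf senescence, and WRKY70 also favours SA over JA responses. WRKY70 (AT3G56400) was the most abundant member in every group, with 1233 FPKM in Fsc and 1435 FPKM in Fcs, against 1073 FPKM in Sei-0 and 684 FPKM in Col-0 at 1 dpi. Its values were 639 in Fsc and 770.1 in Fcs, against 884 in Sei-0 and 682 in Col-0 at 2 dpi, and 345 in Fsc and 385 in Fcs, against 543 in Sei-0 and 504 in Col-0 at 3 dpi. The hybrids were thus above both parents at 1 dpi, by 1.15-fold to 2.10-fold, and below both at 3 dpi, by at least 1.31-fold. WRKY54 (AT2G40750) had 149 FPKM in Fsc and 120.4 FPKM in Fcs, against 115 FPKM in Sei-0 and 112 FPKM in Col-0 at 1 dpi, and 109.9 in Fsc and 112 in Fcs, against 108 in Sei-0 and 76.8 in Col-0 at 3 dpi. It passed 1.5-fold in none of the 18 comparisons between groups of the same day. WRKY55, its neighbour on chromosome 2, lay between 0.748 and 1.59 FPKM in all groups.

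WRKY46 and WRKY53 act with WRKY70 in basal resistance to Pst, and WRKY53 is a regulator that promotes leaf senescence. At 1 dpi WRKY46 (AT2G46400) had 201 FPKM in Fsc and 261 FPKM in Fcs, against 142 FPKM in Sei-0 and 60.0 FPKM in Col-0. At 3 dpi it had 13.4 in Fsc and 19.993 in Fcs, against 32.8 in Sei-0 and 43.6 in Col-0, so that the order of the 4 groups at 3 dpi placed both hybrids last. The smallest of its 4 ratios was 1.42-fold above the parents at 1 dpi and 1.61-fold below them at 3 dpi. WRKY53 (AT4G23810) had 39.5 FPKM in Fsc and 48.3 FPKM in Fcs, against 34.6 FPKM in Sei-0 and 13.0 FPKM in Col-0 at 1 dpi, and 33.9 in Fsc and 30.2 in Fcs, against 30.0 in Sei-0 and 40.9 in Col-0 at 3 dpi, where the groups overlapped. The WRKY53 locus in the tables runs together with that of its neighbour AT4G23800, so reads at their overlap cannot be assigned with certainty.

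WRKY38 and WRKY62 are negative regulators of basal defence that respond to SA and bind the histone deacetylase HDA19. WRKY62 (AT5G01900) had 248 FPKM in Fsc and 166 FPKM in Fcs, against 145 FPKM in Sei-0 and 69.8 FPKM in Col-0 at 1 dpi. It had 29.8 in Fsc and 24.976 in Fcs, against 50.8 in Sei-0 and 65.5 in Col-0 at 2 dpi, and 10.6 in Fsc and 10.7 in Fcs, against 20.8 in Sei-0 and 35.2 in Col-0 at 3 dpi. The order of the groups thus turned round in WRKY62, with Col-0 the lowest at 1 dpi and the highest at 2 and 3 dpi. WRKY38 (AT5G22570) had 124 FPKM in Fsc and 88.6 FPKM in Fcs, against 88.4 FPKM in Sei-0 and 74.9 FPKM in Col-0 at 1 dpi, 42.2 in Fsc and 36.8 in Fcs, against 46.0 in Sei-0 and 67.5 in Col-0 at 2 dpi, and 24.2 in Fsc and 23.1 in Fcs, against 38.6 in Sei-0 and 57.5 in Col-0 at 3 dpi. At 3 dpi both genes were lower in each hybrid than in each parent, by at least 1.86-fold for WRKY62 and 1.57-fold for WRKY38. HDA19 itself lay between 48.9 and 70.1 FPKM in the 12 groups.

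WRKY18, WRKY40 and WRKY60 form group IIa, whose proteins bind one another and together restrain immune responses. WRKY18 (AT4G31800) was hybrid-high at 1 dpi, with 576 FPKM in Fsc and 619 FPKM in Fcs, against 346 FPKM in Sei-0 and 274 FPKM in Col-0. At 3 dpi it had 193 in Fsc and 255 in Fcs, against 340.3 in Sei-0 and 233 in Col-0. WRKY40 (AT1G80840) had 62.0 FPKM in Fsc and 91.3 FPKM in Fcs, against 51.9 FPKM in Sei-0 and 20.2 FPKM in Col-0 at 1 dpi, 21.0 in Fsc and 30.8 in Fcs, against 49.9 in Sei-0 and 11.996 in Col-0 at 2 dpi, and 10.3 in Fsc and 11.6 in Fcs, against 20.7 in Sei-0 and 17.5 in Col-0 at 3 dpi. Sei-0 had 3.92-fold the Col-0 level of WRKY40 at 2 dpi, and the hybrids lay between them. WRKY60 was highest in Col-0 on both days, with 97.0 FPKM in Fsc and 101 FPKM in Fcs, against 89.1 FPKM in Sei-0 and 110.2 FPKM in Col-0 at 1 dpi and 62.3 in Fsc and 75.4 in Fcs, against 93.9 in Sei-0 and 109 in Col-0 at 3 dpi. It was more than 1.5-fold lower in Fsc than in Col-0 at 3 dpi, where both hybrids were below both parents. WRKY40 overlaps the gene AT1G80850 on the opposite strand, and whether the counting used strand is not stated in the sources used here.

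**Figure D4:**
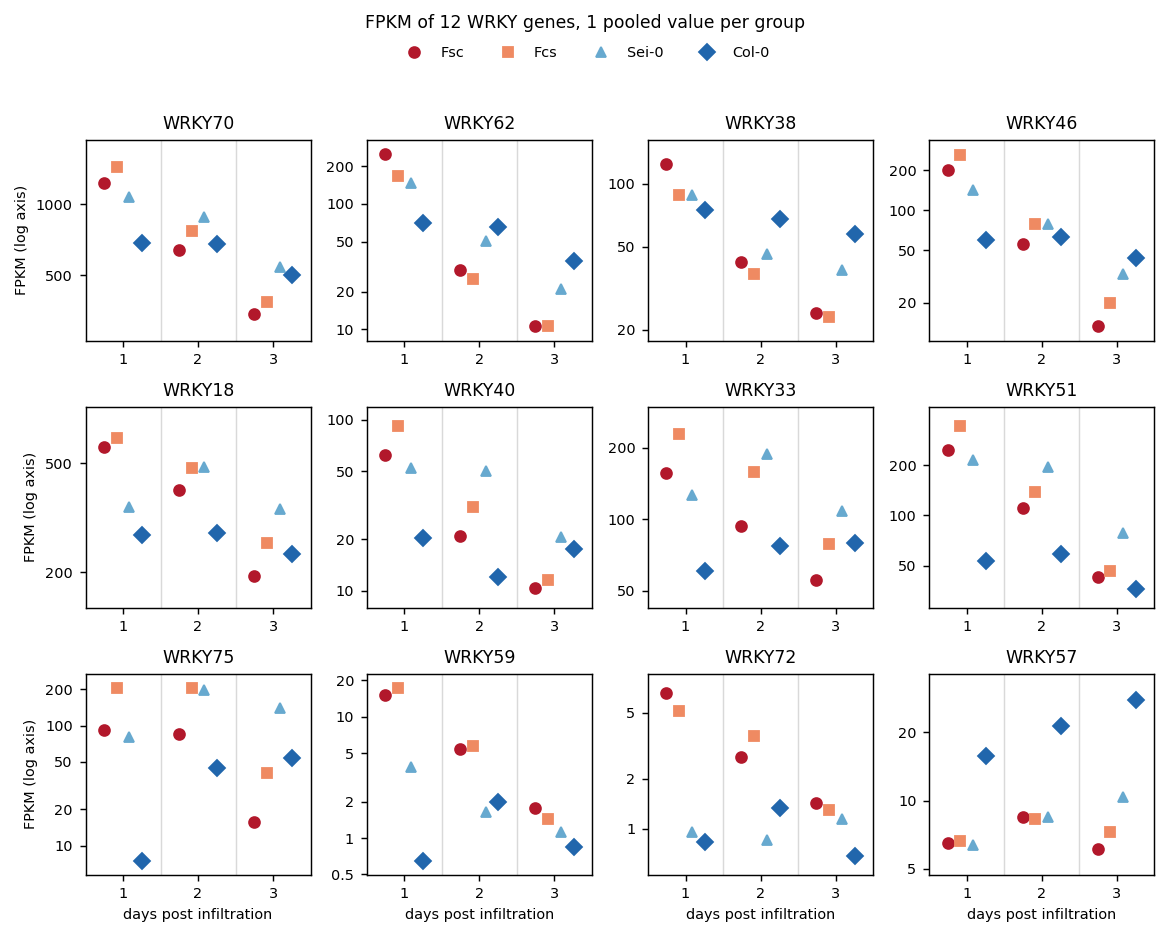
FPKM of 12 WRKY genes on log axes at 1, 2 and 3 dpi in Fsc, Fcs, Sei-0 and Col-0, each point being the authors' single pooled value of 3 libraries. WRKY62 was highest in the hybrids at 1 dpi (248 in Fsc) and lowest there at 3 dpi (10.6 in Fsc), and WRKY57 was lower in Fsc, Fcs and Sei-0 than in Col-0 on all 3 days.

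WRKY33 drives synthesis of the antimicrobial compound camalexin and is released from MPK4 by flagellin, and WRKY25 and WRKY26 are its close relatives in group I. WRKY33 (AT2G38470) had 157 FPKM in Fsc and 228 FPKM in Fcs, against 127 FPKM in Sei-0 and 60.6 FPKM in Col-0 at 1 dpi. The values were 93.4 in Fsc and 158 in Fcs, against 188 in Sei-0 and 77.0 in Col-0 at 2 dpi, and 55.3 in Fsc and 78.8 in Fcs, against 108 in Sei-0 and 79.8 in Col-0 at 3 dpi. Fcs stood above Fsc on each day and Sei-0 above Col-0 on each day. WRKY25 had 57.7 FPKM in Fsc and 67.3 FPKM in Fcs, against 60.4 FPKM in Sei-0 and 37.6 FPKM in Col-0 at 1 dpi, and 52.4 in Fsc and 61.5 in Fcs, against 77.2 in Sei-0 and 68.3 in Col-0 at 3 dpi. WRKY26, named here after its values were seen, had 18.8 FPKM in Fsc and 41.0 FPKM in Fcs, against 16.7 FPKM in Sei-0 and 8.11 FPKM in Col-0 at 1 dpi, and 59.9 in Fsc and 104 in Fcs, against 117 in Sei-0 and 55.7 in Col-0 at 3 dpi, where Sei-0 was the highest of the groups. WRKY33 shares its locus in the tables with AT2G38480 on the other strand.

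WRKY22 and WRKY29 act below the flagellin receptor and its MAP kinases, and both were among the less abundant members. WRKY29 (AT4G23550) had 5.21 FPKM in Fsc and 3.47 FPKM in Fcs, against 0.697 FPKM in Sei-0 and 1.00 FPKM in Col-0 at 1 dpi, 3.56 in Fsc and 5.83 in Fcs, against 1.22 in Sei-0 and 1.40 in Col-0 at 2 dpi, and 3.62 in Fsc and 3.41 in Fcs, against 2.87 in Sei-0 and 2.09 in Col-0 at 3 dpi. In each hybrid it was above each parent on all 3 days, by at least 2.23-fold at 1 dpi, 1.896-fold at 2 dpi and 1.14-fold at 3 dpi. WRKY22 had 2.59 FPKM in Fsc and 3.39 FPKM in Fcs, against 2.66 FPKM in Sei-0 and 2.60 FPKM in Col-0 at 1 dpi, and 5.61 in Fsc and 9.47 in Fcs, against 8.85 in Sei-0 and 3.43 in Col-0 at 3 dpi. WRKY29 overlaps AT4G23560 on the opposite strand. WRKY11 and WRKY17, a related pair that limits basal resistance to Pst, did not follow the family at 1 dpi: WRKY11 had 34.3 FPKM in Fsc and 34.1 FPKM in Fcs, against 28.5 FPKM in Sei-0 and 39.1 FPKM in Col-0, and WRKY17 had 8.25 FPKM in Fsc and 5.83 FPKM in Fcs, against 8.06 FPKM in Sei-0 and 7.90 FPKM in Col-0.

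WRKY28 activates the SA synthesis gene ICS1, WRKY50 binds the promoter of PR1, and WRKY50 and WRKY51 lower JA responses when oleic acid is scarce. WRKY51 (AT5G64810) had 246 FPKM in Fsc and 344 FPKM in Fcs, against 214 FPKM in Sei-0 and 53.4 FPKM in Col-0 at 1 dpi. It had 111 in Fsc and 139 in Fcs, against 196 in Sei-0 and 58.7 in Col-0 at 2 dpi, and 42.5 in Fsc and 46.2 in Fcs, against 78.3 in Sei-0 and 36.4 in Col-0 at 3 dpi. Col-0 was the lowest group of WRKY51 on each day. WRKY50 had 51.4 FPKM in Fsc and 55.7 FPKM in Fcs, against 34.4 FPKM in Sei-0 and 25.1 FPKM in Col-0 at 1 dpi, and 10.095 in Fsc and 8.43 in Fcs, against 12.1 in Sei-0 and 20.3 in Col-0 at 3 dpi. At 1 dpi its smallest ratio, 1.48-fold, missed the threshold narrowly, and at 3 dpi both hybrids were below both parents. WRKY28 had 31.8 FPKM in Fsc and 36.7 FPKM in Fcs, against 23.2 FPKM in Sei-0 and 18.7 FPKM in Col-0 at 1 dpi, and 12.9 in Fsc and 16.3 in Fcs, against 15.9 in Sei-0 and 19.5 in Col-0 at 3 dpi.

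WRKY75, WRKY45, WRKY6 and WRKY42 link phosphate supply with senescence: WRKY75 and WRKY45 promote phosphate uptake, and WRKY6 and WRKY42 repress the phosphate exporter gene PHO1. WRKY75 (AT5G13080) had the widest range of all members over the 12 groups, 24.6-fold in FPKM + 1. It had 92.3 FPKM in Fsc and 207 FPKM in Fcs, against 80.0 FPKM in Sei-0 and 7.46 FPKM in Col-0 at 1 dpi, 84.7 in Fsc and 206 in Fcs, against 197 in Sei-0 and 43.8 in Col-0 at 2 dpi, and 15.7 in Fsc and 40.4 in Fcs, against 139 in Sei-0 and 53.4 in Col-0 at 3 dpi. At 1 dpi Sei-0 had 9.58-fold the Col-0 level, and at 3 dpi Fsc was the lowest of the groups. WRKY45 (AT3G01970) had 20.7 FPKM in Fsc and 65.6 FPKM in Fcs, against 36.4 FPKM in Sei-0 and 18.7 FPKM in Col-0 at 1 dpi, 75.3 in Fsc and 132 in Fcs, against 156 in Sei-0 and 67.8 in Col-0 at 2 dpi, and 34.5 in Fsc and 77.5 in Fcs, against 143 in Sei-0 and 88.3 in Col-0 at 3 dpi. In both genes Fsc was below Fcs on every day.

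WRKY6 (AT1G62300) was hybrid-high at 1 dpi, with 37.0 FPKM in Fsc and 45.1 FPKM in Fcs, against 22.8 FPKM in Sei-0 and 11.4 FPKM in Col-0. At 3 dpi it had 24.979 in Fsc and 29.8 in Fcs, against 41.1 in Sei-0 and 31.0 in Col-0. WRKY42 was much less abundant, with 2.71 FPKM in Fsc and 1.10 FPKM in Fcs, against 0.666 FPKM in Sei-0 and 0.383 FPKM in Col-0 at 1 dpi, and 2.57 in Fsc and 2.24 in Fcs, against 2.55 in Sei-0 and 0.826 in Col-0 at 3 dpi. It was the member with the highest ratio of Fsc to Fcs at 1 dpi, 1.76-fold. WRKY31, a group IIb relative of WRKY6 that the naming rule did not include, had 5.42 FPKM in Fsc and 6.70 FPKM in Fcs, against 2.74 FPKM in Sei-0 and 0.919 FPKM in Col-0 at 1 dpi. Its smallest ratio was 1.72-fold, past the threshold. PHO1 itself had 1.47 FPKM in Fsc and 1.78 FPKM in Fcs, against 2.43 FPKM in Sei-0 and 2.61 FPKM in Col-0 at 1 dpi, and the phosphate transporter gene PHT1;1 was under 1 FPKM in every group.

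WRKY8 and WRKY48 are negative regulators of resistance to Pst, and overexpressed WRKY41 raises it. WRKY8 (AT5G46350) had 59.2 FPKM in Fsc and 68.2 FPKM in Fcs, against 23.8 FPKM in Sei-0 and 20.9 FPKM in Col-0 at 1 dpi. At 2 dpi it had 38.8 in Fsc and 58.6 in Fcs, against 30.4 in Sei-0 and 40.7 in Col-0, and at 3 dpi 18.0 in Fsc and 23.7 in Fcs, against 26.3 in Sei-0 and 42.4 in Col-0. All 4 of its ratios at 1 dpi lay between 2.42-fold and 3.16-fold, although the parents were alike. WRKY48 had 8.30 FPKM in Fsc and 11.3 FPKM in Fcs, against 4.99 FPKM in Sei-0 and 7.25 FPKM in Col-0 at 1 dpi, and 4.61 in Fsc and 6.64 in Fcs, against 6.94 in Sei-0 and 9.95 in Col-0 at 3 dpi. WRKY41, which overlaps AT4G11080 on the opposite strand, had 1.60 FPKM in Fsc and 2.66 FPKM in Fcs, against 1.97 FPKM in Sei-0 and 0.718 FPKM in Col-0 at 1 dpi, and 4.54 in Fsc and 6.495 in Fcs, against 6.37 in Sei-0 and 3.87 in Col-0 at 3 dpi. WRKY30, which protects against oxidative stress, was highest in Sei-0 at 1 dpi, with 5.65 FPKM in Fsc and 5.34 FPKM in Fcs, against 8.56 FPKM in Sei-0 and 2.16 FPKM in Col-0.

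The members farthest above the mid-parent value at 1 dpi were of low abundance in the parents. WRKY59 (AT2G21900) had 15.2 FPKM in Fsc and 17.4 FPKM in Fcs, against 3.82 FPKM in Sei-0 and 0.649 FPKM in Col-0, and its 4 ratios lay between 3.37-fold and 11.1-fold. WRKY66 (AT1G80590) had 4.39 FPKM in Fsc and 5.99 FPKM in Fcs, against 0.363 FPKM in Sei-0 and 0.938 FPKM in Col-0. WRKY72, which contributes to basal defence, had 6.62 FPKM in Fsc and 5.15 FPKM in Fcs, against 0.958 FPKM in Sei-0 and 0.823 FPKM in Col-0. In all 3 genes the hybrids and the parents did not overlap at 1 dpi. Parental values near or under 1 FPKM, in WRKY59 that of Col-0 only, make the size of the ratio depend on the added 1 FPKM. WRKY59 and WRKY72 stayed hybrid-high at 2 dpi, with 5.38 in Fsc and 5.76 in Fcs, against 1.63 in Sei-0 and 1.99 in Col-0 for WRKY59, and 2.69 in Fsc and 3.6023 in Fcs, against 0.851 in Sei-0 and 1.33 in Col-0 for WRKY72. At 3 dpi WRKY59 had 1.78 in Fsc and 1.44 in Fcs, against 1.12 in Sei-0 and 0.846 in Col-0, and WRKY72 had 1.43 in Fsc and 1.29 in Fcs, against 1.15 in Sei-0 and 0.685 in Col-0; both hybrids were still above both parents, but under 1.5-fold.

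WRKY67, WRKY64 and WRKY63 lie within a short stretch of chromosome 1, with starts at 24828502, 24833518 and 24848320, while WRKY66 lies on the same chromosome but apart from them, at 30296166. As related copies, they may share reads, so their values are uncertain. WRKY63 (AT1G66600), also known as ABO3 for its part in responses to abscisic acid and drought, had 21.7 FPKM in Fsc and 18.8 FPKM in Fcs, against 10.7 FPKM in Sei-0 and 4.22 FPKM in Col-0 at 1 dpi. At 3 dpi it had 1.64 in Fsc and 2.89 in Fcs, against 7.12 in Sei-0 and 7.04 in Col-0, and its smallest ratio below the parents, 2.07-fold, was the largest among the 5 hybrid-low members. WRKY67 was an exception, since Sei-0 was slightly above Fsc and more than 1.5-fold above Fcs, with 10.018 FPKM in Fsc and 6.46 FPKM in Fcs, against 10.6 FPKM in Sei-0 and 1.25 FPKM in Col-0 at 1 dpi. WRKY64 had 2.35 FPKM in Fsc and 1.63 FPKM in Fcs, against 0.658 FPKM in Sei-0 and 0.41 FPKM in Col-0 at 1 dpi, and 1.71 in Fsc and 6.14 in Fcs, against 1.32 in Sei-0 and 1.07 in Col-0 at 2 dpi, where Fcs stood apart.

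Several members ran against the family at 1 dpi. WRKY57, known for drought tolerance and for restraining JA-induced senescence, had 6.48 FPKM in Fsc and 6.63 FPKM in Fcs, against 6.39 FPKM in Sei-0 and 15.8 FPKM in Col-0 at 1 dpi. It had 8.48 in Fsc and 8.26 in Fcs, against 8.45 in Sei-0 and 21.3 in Col-0 at 2 dpi, and 6.14 in Fsc and 7.28 in Fcs, against 10.4 in Sei-0 and 27.9 in Col-0 at 3 dpi. Both hybrids were therefore near the Sei-0 level at 1 and 2 dpi and below it at 3 dpi, with Col-0 the highest group throughout. WRKY44 (AT2G37260), known as TTG2 for its part in trichome and seed coat development, had 0.375 FPKM in Fsc and 0.186 FPKM in Fcs, against 0.472 FPKM in Sei-0 and 1.41 FPKM in Col-0 at 1 dpi, and 0.564 in Fsc and 1.11 in Fcs, against 2.22 in Sei-0 and 4.21 in Col-0 at 3 dpi. The trichome marker GL2 was under 1 FPKM in every group and highest in Col-0 at 1 and 3 dpi, with 0.322 FPKM in Fsc and 0.224 FPKM in Fcs, against 0.376 FPKM in Sei-0 and 0.828 FPKM in Col-0 at 1 dpi; its part in the WRKY44 values was not tested. WRKY69 was lowest in the hybrids at 1 dpi, with 8.74 FPKM in Fsc and 10.7 FPKM in Fcs, against 16.5 FPKM in Sei-0 and 11.8 FPKM in Col-0, and it shares its locus in the tables with AT3G58720.

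A smaller set was above both parents at 3 dpi. Both hybrids lay above both parents in 8 members on that day, of which WRKY29, WRKY54, WRKY59 and WRKY72 did so on all 3 days and WRKY7, WRKY23, WRKY32 and WRKY65 did not. WRKY7 (AT4G24240), which binds calmodulin, was hybrid-high at 2 dpi, with 17.5 FPKM in Fsc and 14.5 FPKM in Fcs, against 8.60 FPKM in Sei-0 and 4.98 FPKM in Col-0. At 3 dpi it had 21.4 in Fsc and 18.8 in Fcs, against 15.7 in Sei-0 and 6.30 in Col-0, the highest ratio of the hybrids to the mid-parent value of that day, 0.81 on the log2 scale. WRKY65 had 8.80 FPKM in Fsc and 9.08 FPKM in Fcs, against 7.97 FPKM in Sei-0 and 2.19 FPKM in Col-0 at 3 dpi, so that Col-0 alone stood low. WRKY32 had 11.7 FPKM in Fsc and 10.8 FPKM in Fcs, against 8.27 FPKM in Sei-0 and 7.21 FPKM in Col-0 at 3 dpi. WRKY23 was near 1 FPKM throughout and had its highest value, 1.86 FPKM, in Fsc at 3 dpi.

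Other members varied less or are given by their range. WRKY1, WRKY3, WRKY11, WRKY20, WRKY21, WRKY23, WRKY54 and WRKY55, 8 of the 54, passed 1.5-fold in none of the 18 comparisons. The share of all genes that did so was not counted. WRKY23, with 0.828 to 1.86 FPKM, and WRKY55, with 0.748 to 1.59 FPKM, lay where the added 1 FPKM makes ratios smaller. WRKY20 had the narrowest range of the 54 over the 12 groups, from 25.2 to 34.8 FPKM or 1.37-fold in FPKM + 1, and WRKY1 ranged from 22.4 to 37.1 FPKM. WRKY2, WRKY4, WRKY27, WRKY47 and WRKY58 had between 1 and 5 such differences each. WRKY15 and WRKY39 of group IId were named here after their values were seen. WRKY15 had 129 FPKM in Fsc and 256 FPKM in Fcs, against 165 FPKM in Sei-0 and 58.8 FPKM in Col-0 at 1 dpi, so only Fcs was above both parents. WRKY39 was closer to the pattern of the family, with 25.5 FPKM in Fsc and 37.0 FPKM in Fcs, against 22.8 FPKM in Sei-0 and 7.79 FPKM in Col-0 at 1 dpi. WRKY61, in group IIb, was highest in Col-0 at 3 dpi, with 1.06 FPKM in Fsc and 1.63 FPKM in Fcs, against 1.81 FPKM in Sei-0 and 5.25 FPKM in Col-0. WRKY1, WRKY2, WRKY4 and WRKY61 overlap genes on the opposite strand in TAIR10.1, and WRKY1 shares its locus in the tables with AT2G04890 and AT2G04900.

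Between the parents, more members were higher in Sei-0 than in Col-0. At 1 dpi 21 members (38.9%, beside 14.4% of all genes) were at least 1.5-fold higher in Sei-0 and 3 (5.56%, beside 17.9%) lower. At 2 dpi 17 (31.5%, beside 11.6%) were higher and 7 (13%, beside 14.7%) lower, and at 3 dpi 15 (27.8%, beside 10.6%) were higher and 7 (13%, beside 13.5%) lower. WRKY75 led at 1 and 2 dpi, with a log2 ratio of 3.26 and 2.14, and WRKY65 at 3 dpi with 1.49. WRKY57 had the lowest ratio at 1 and 3 dpi, -1.18 and -1.34, and WRKY66 at 2 dpi, -1.45. Reads of both accessions were aligned to the Col-0 reference, and the effect of Sei-0 sequence differences on these values was not tested.

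Where the parents differed by 1.5-fold, the mean of the hybrids could be placed relative to them. At 1 dpi it was above the higher parent in 19 of 24 members (79.2%, beside 24.3% of the 6214 such genes) and below the lower parent in 1 (4.17%, beside 24.4%). At 2 dpi it lay nearer the higher parent, but between the parents, in 13 of 24 members (54.2%, beside 40.3% of 5087 genes) and above the higher parent in 5 (20.8%, beside 16.7%). At 3 dpi it was above the higher parent in 2 of 22 (9.09%, beside 22.4% of 4642 genes) and below the lower parent in 8 (36.4%, beside 23.3%). WRKY8, WRKY44, WRKY45, WRKY50, WRKY57, WRKY61, WRKY62 and WRKY75 were these 8.

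Set against each parent on its own, both hybrids had more members above Col-0 than above Sei-0 at 1 dpi, and more below Sei-0 than below Col-0 at 3 dpi. All counts are of members at least 1.5-fold apart. In Fsc, at 1 dpi 15 (27.8%, beside 11.3% of all genes) were higher and 2 (3.7%, beside 11.6% of all genes) lower than in Sei-0. At 2 dpi 6 (11.1%, beside 13.2% of all genes) were higher and 10 (18.5%, beside 10.1% of all genes) lower than in Sei-0. At 3 dpi 0 (0%, beside 17.1% of all genes) were higher and 24 (44.4%, beside 16% of all genes) lower than in Sei-0. The 24 lower ones of 3 dpi included WRKY75, WRKY45 and WRKY46. Relative to Col-0, members of Fsc shifted the same way between 1 and 3 dpi. At 1 dpi 30 (55.6%, beside 16.8% of all genes) were higher and 2 (3.7%, beside 19.8% of all genes) lower than in Col-0. At 2 dpi 13 (24.1%, beside 12.9% of all genes) were higher and 5 (9.26%, beside 13.2% of all genes) lower than in Col-0. At 3 dpi 5 (9.26%, beside 18.7% of all genes) were higher and 17 (31.5%, beside 19.2% of all genes) lower than in Col-0.

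Fcs had more members above Sei-0 than Fsc at 1 and 2 dpi, and fewer below it at 2 and 3 dpi. At 1 dpi 25 (46.3%, beside 12.6% of all genes) were higher and 3 (5.56%, beside 12.6% of all genes) lower than in Sei-0. At 2 dpi 12 (22.2%, beside 9.89% of all genes) were higher and 3 (5.56%, beside 6.61% of all genes) lower than in Sei-0. At 3 dpi 0 (0%, beside 10% of all genes) were higher and 12 (22.2%, beside 10.1% of all genes) lower than in Sei-0. Those higher than Sei-0 at 1 dpi included WRKY33, WRKY40, WRKY46 and WRKY51, which in Fsc stayed under 1.5-fold over Sei-0. Relative to Col-0, higher members of Fcs outnumbered lower ones at 1 and 2 dpi but not at 3 dpi. At 1 dpi 31 (57.4%, beside 20.2% of all genes) were higher and 2 (3.7%, beside 22.4% of all genes) lower than in Col-0. At 2 dpi 21 (38.9%, beside 12.9% of all genes) were higher and 5 (9.26%, beside 11.9% of all genes) lower than in Col-0. At 3 dpi 6 (11.1%, beside 14.4% of all genes) were higher and 9 (16.7%, beside 16% of all genes) lower than in Col-0. WRKY38, WRKY44, WRKY50, WRKY57 and WRKY62 were lower in Fcs than in Col-0 at both 2 and 3 dpi.

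**Figure D5:**
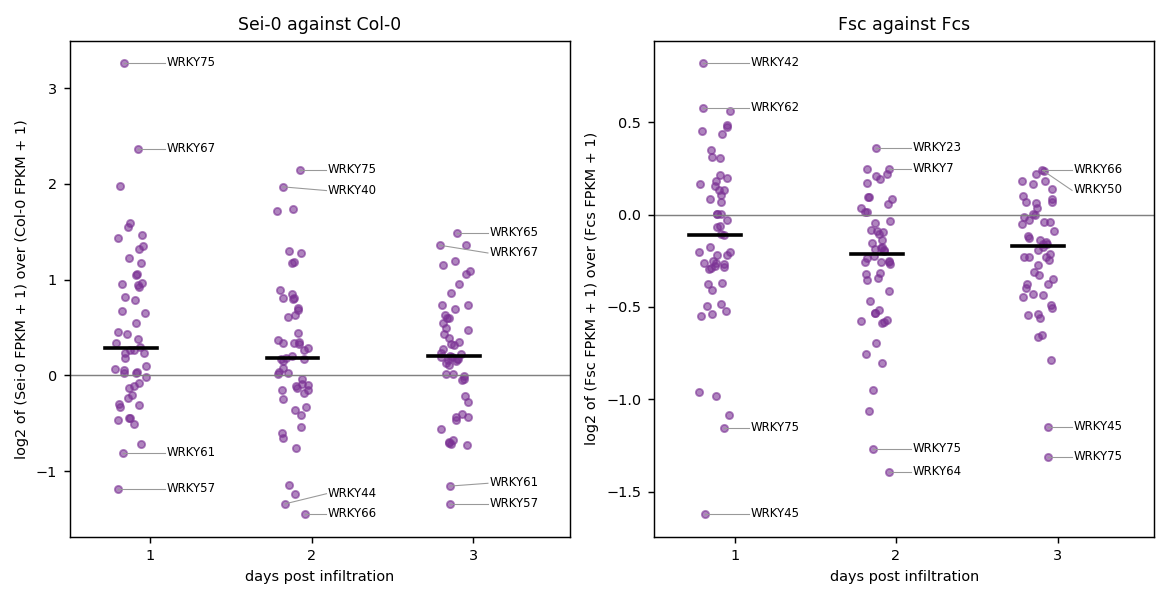
log2 ratios on FPKM + 1 of Sei-0 to Col-0 (left) and of Fsc to Fcs (right) for each of the 54 WRKY genes at 1, 2 and 3 dpi; black bars are medians, and the 2 highest and 2 lowest genes of each day are named. The medians were 0.28, 0.18 and 0.20 for Sei-0 against Col-0, and -0.11, -0.21 and -0.17 for Fsc against Fcs. Over all 19280 genes they were -0.003, 0 and 0.005 for Sei-0 against Col-0, and -0.009, 0.001 and 0.002 for Fsc against Fcs.

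The reciprocal hybrids differed less than the parents did, and where they differed Fsc was mostly the lower one. Fsc was at least 1.5-fold higher than Fcs in 1 member at 1 dpi (1.85%, beside 4.5% of all genes), WRKY42, and in 0 at 2 and 3 dpi, beside 2.93% and 2.99%. Fsc was lower in 5 members at 1 dpi (9.26%, beside 5.15%), in 7 at 2 dpi (13%, beside 5.93%) and in 5 at 3 dpi (9.26%, beside 5.39%). WRKY26, WRKY45 and WRKY75 were among the lower ones on all 3 days. At any fold, Fsc was below Fcs in 31, 40 and 40 of the 54 members at 1, 2 and 3 dpi. The share of all genes below at any fold was not counted. The median log2 ratio of Fsc to Fcs was -0.11, -0.21 and -0.17 over the members, and -0.009, 0.001 and 0.002 over all genes. WRKY45 at 1 dpi had the lowest ratio, -1.62 on the log2 scale, with 20.7 FPKM in Fsc and 65.6 FPKM in Fcs. WRKY64 had -1.39 at 2 dpi, the lowest of that day, and WRKY75 had -1.15 at 1 dpi, -1.27 at 2 dpi and -1.31 at 3 dpi.

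Over the days, levels were compared with the limit that each day's table was normalized on its own. Between 1 and 3 dpi, 25 members in Fsc and 23 in Fcs were at least 1.5-fold lower at 3 dpi, against 11 in Sei-0 and 2 in Col-0. The shares of all genes were 18.2% in Fsc, 20% in Fcs, 15% in Sei-0 and 12% in Col-0. In the other direction, 8 members in Fsc, 10 in Fcs, 20 in Sei-0 and 19 in Col-0 were at least 1.5-fold higher at 3 dpi, beside 21.4% of all genes in Fsc, 22.7% in Fcs, 16.6% in Sei-0 and 14.2% in Col-0. The highest of the 3 days was 1 dpi for 26 members in Fsc, 25 in Fcs, 16 in Sei-0 and 7 in Col-0. The share of all genes with their highest value at 1 dpi was not counted, so these counts describe the members only. WRKY26, WRKY41 and WRKY65 were at least 1.5-fold higher at 3 than at 1 dpi in all 4 genotypes, and WRKY62 and WRKY67 at least 1.5-fold lower. WRKY38, WRKY46 and WRKY70 passed 1.5-fold in Fsc, Fcs and Sei-0 but not in Col-0, where they were 1.297-fold, 1.368-fold and 1.355-fold lower at 3 dpi.

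Partners, kinases and known targets of WRKY proteins were read beside the family. Of the 9 target genes on the list, 8 reached 1 FPKM, of which 3, 2 and 0 were hybrid-high at 1, 2 and 3 dpi and 0, 0 and 3 were hybrid-low. Their median log2 ratio of the hybrids to the mid-parent value was 1.32, 0.00 and -0.72 at 1, 2 and 3 dpi. PBS3, an SA synthesis gene, had 539.6 FPKM in Fsc and 737 FPKM in Fcs, against 265 FPKM in Sei-0 and 65.2 FPKM in Col-0 at 1 dpi, and 18.9 in Fsc and 35.5 in Fcs, against 67.2 in Sei-0 and 73.4 in Col-0 at 3 dpi. PAD3, the last enzyme of camalexin synthesis and a target of WRKY33, had 280.4 FPKM in Fsc and 486 FPKM in Fcs, against 387 FPKM in Sei-0 and 32.4 FPKM in Col-0 at 1 dpi, and 40.3 in Fsc and 49.5 in Fcs, against 160.4 in Sei-0 and 33.7 in Col-0 at 3 dpi. PR1, the marker of SA responses, had 3437 FPKM in Fsc and 3725 FPKM in Fcs, against 694 FPKM in Sei-0 and 141 FPKM in Col-0 at 1 dpi, and it was hybrid-high at 2 dpi too. Its values at 3 dpi were 1742 in Fsc and 1542 in Fcs, against 693 in Sei-0 and 2409 in Col-0, so that the hybrids lay between the parents and PR1 did not turn hybrid-low as PBS3 did. Many of these genes were chosen for their known role in SA defence and stand for no independent evidence on the WRKY genes.

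Of the 6 kinase genes upstream of WRKY proteins, MEKK1, MKK4, MKK5, MPK3, MPK4 and MPK6, 0 were hybrid-high or hybrid-low on any day, and their medians were 0.37, -0.11 and -0.33. Among the 6 VQ proteins, small partners that bind WRKY domains, VQ10 was hybrid-high at 1 dpi and SIB2 at 3 dpi. VQ10 had 118 FPKM in Fsc and 127 FPKM in Fcs, against 69.3 FPKM in Sei-0 and 10.2 FPKM in Col-0 at 1 dpi. JAV1, a VQ repressor of JA responses, had 113 FPKM in Fsc and 148 FPKM in Fcs, against 84.6 FPKM in Sei-0 and 31.9 FPKM in Col-0 at 1 dpi, and 20.8 in Fsc and 35.7 in Fcs, against 64.0 in Sei-0 and 49.981 in Col-0 at 3 dpi. SIB1, a partner of WRKY33, had 150.0 FPKM in Fsc and 156 FPKM in Fcs, against 124 FPKM in Sei-0 and 167 FPKM in Col-0 at 1 dpi, and 159 in Fsc and 176 in Fcs, against 130.4 in Sei-0 and 93.5 in Col-0 at 3 dpi, so that it did not follow WRKY33.

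Other genes moved with the groups as well. The morning clock gene CCA1 had 6.73 FPKM in Fsc and 15.6 FPKM in Fcs, against 54.3 FPKM in Sei-0 and 115 FPKM in Col-0 at 1 dpi, and 1.10 in Fsc and 7.16 in Fcs, against 22.0 in Sei-0 and 62.3 in Col-0 at 3 dpi, and LHY was likewise hybrid-low on each day. The evening gene TOC1 had 46.8 FPKM in Fsc and 27.5 FPKM in Fcs, against 11.7 FPKM in Sei-0 and 6.41 FPKM in Col-0 at 1 dpi, and 110.1 in Fsc and 47.5 in Fcs, against 22.0 in Sei-0 and 11.1 in Col-0 at 3 dpi, and LUX was hybrid-high on each day. The photosynthesis gene RBCS1A had 7399 FPKM in Fsc and 4916 FPKM in Fcs, against 9976 FPKM in Sei-0 and 17570.0 FPKM in Col-0 at 1 dpi, and 13835 in Fsc and 11436 in Fcs, against 8045 in Sei-0 and 8307 in Col-0 at 3 dpi. RBCS1A was not hybrid-high at 3 dpi. CAB1, another mesophyll marker, was hybrid-high on that day, with 11878 in Fsc and 11585 in Fcs, against 5342 in Sei-0 and 7329.7 in Col-0. RCA, the third, was hybrid-low at 1 dpi, with 1223 FPKM in Fsc and 1093 FPKM in Fcs, against 2595 FPKM in Sei-0 and 4242 FPKM in Col-0, and was below both parents at 3 dpi too, with 2352 in Fsc and 3239 in Fcs, against 3405 in Sei-0 and 3896 in Col-0. The root marker PYK10 had 0.841 FPKM in Fsc and 1.295 FPKM in Fcs, against 4.21 FPKM in Sei-0 and 22.6 FPKM in Col-0 at 2 dpi, and 1.18 in Fsc and 4.45 in Fcs, against 8.20 in Sei-0 and 23.9 in Col-0 at 3 dpi. The guard cell gene KAT1 had 28.7 FPKM in Fsc and 24.2 FPKM in Fcs, against 11.4 FPKM in Sei-0 and 17.1 FPKM in Col-0 at 1 dpi. At 3 dpi it had 14.7 in Fsc and 16.9 in Fcs, against 34.6 in Sei-0 and 37.971 in Col-0. FAMA, the other guard cell marker, had 8.31 FPKM in Fsc and 6.09 FPKM in Fcs, against 4.82 FPKM in Sei-0 and 9.78 FPKM in Col-0 at 1 dpi. At 3 dpi FAMA was not hybrid-low, with 11.2 in Fsc and 8.10 in Fcs, against 6.83 in Sei-0 and 8.58 in Col-0. The part of these shifts in the WRKY values was not tested.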

How the data were processed

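mRNA-seq of infiltrated leaves was analysed in 12 groups of 3 libraries. The authors aligned reads of all genotypes to the Col-0 reference (TAIR10) with TopHat (the submitters' notes name Bowtie) and ran Cufflinks, Cuffmerge and Cuffdiff, with versions not given in the sources used here. The deposited FPKM values are 1 Cuffdiff table per day, normalized separately, with 1 pooled value per group. The authors' fold changes, test statistics, p-values and q-values in these tables were not used. Genes with at least 1 FPKM in any group were kept. Ratios were taken on FPKM + 1, and a gene was called above or below both parents where all 4 hybrid-to-parent ratios reached 1.5-fold. With 1 value per group, no test was made. The study lists aligned reads and replicate correlations by library, but the tables hold no read counts, and neither was used here. The calls were checked on simulated data without noise, in which only well expressed genes were changed. That check shows only that the rule was applied as stated. The error rate of the calls in these libraries was not tested.

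The members, gene lists and thresholds were chosen with earlier results of these data known. Members were named by their known role, their place in the genome, or the highest and lowest ratios of a day, 41 in all. The rule placed WRKY66 in a gene cluster to which it does not belong. Of the 33557 identifiers, 32810 matched RefSeq TAIR10.1, and 28625 of 28626 single-gene loci overlapped their TAIR10.1 gene, 52% with at least 1 equal end. Promoter windows were read from that genome, from its annotated gene starts. Protein sequences were not used here. Alternatives were pseudocounts of 0.1 and 5 FPKM, no filter, a filter of 5 FPKM, a fold of 2, and scaling of groups to the same median. Python 3.11.15, NumPy 2.4.6, pandas 2.3.3 and Matplotlib 3.10.9 were used.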

Additional observations from a re-analysis of the deposited data

Results flagged for a closer look

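In 14 members both hybrids were above both parents at 1 dpi and below both at 3 dpi, and the log2 ratio of the hybrids to the mid-parent value dropped by more than 1 between these days. The first condition alone was met by 16 members (29.6%, beside 8.46% of all genes). The share of all genes that met both conditions was not counted. The drop was largest in WRKY75, with a change of -3.52 on the log2 scale. It was -2.66 in WRKY63, -2.35 in WRKY46, -2.22 in WRKY62 and -2.17 in WRKY8. It was -1.79 in WRKY40, -1.60 in WRKY6, -1.58 in WRKY50 and -1.51 in WRKY33. In WRKY39 and WRKY64 it was -1.48 each, in WRKY38 -1.35, and in WRKY48 and WRKY70 -1.12 each. WRKY64 was under 1 FPKM in every group at 3 dpi, with 0.0949 in Fsc and 0.283 in Fcs, against 0.823 in Sei-0 and 0.589 in Col-0. The size of its change therefore depends on the added 1 FPKM. None of these differences between days was tested, since each group has 1 pooled value, and the 3 tables were normalized separately.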

How the results depend on the processing

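No paired analysis was possible because the tables hold 1 pooled value per group, and for the same reason no library could be left out. With no filter on low values, all 18 counts of members were within 1.5 times those in the report. With a pseudocount of 0.1 FPKM, Fsc was higher than Fcs in 3, 1 and 1 members at 1, 2 and 3 dpi, and lower in 12 at 2 dpi and 10 at 3 dpi. With a pseudocount of 5 FPKM, members lower in Sei-0 than in Col-0 numbered 1, 2 and 4 at 1, 2 and 3 dpi, those higher in Sei-0 8 at 3 dpi, those above both parents 0 at 2 dpi and those below both 3 at 3 dpi. In that setting Fsc was higher than Fcs in 0 members at 1 dpi and lower in 3 at 3 dpi. A filter of 5 FPKM left 0 members higher in Fsc than in Fcs at 1 dpi, and scaling to the same median gave 2. At 2-fold, 5 members were above both parents at 1 dpi and 1 at 2 dpi, and 0 were below both at 2 dpi and 1 at 3 dpi. At 2-fold, 13, 8 and 7 members were higher in Sei-0 than in Col-0 at 1, 2 and 3 dpi, and 1, 4 and 2 lower. At 2-fold, Fsc was higher than Fcs in 0 members at 1 dpi and lower in 3, 3 and 2 at 1, 2 and 3 dpi. The shares of all genes under these other settings are not given here. Whether the members still differ from all genes in them can therefore not be read from these counts. WRKY7, WRKY29, WRKY59 and WRKY72 made up the count at 2 dpi that is 0 with a pseudocount of 5 FPKM. Of 123 values of named members, 26 no longer passed at 2-fold and 17 with a pseudocount of 5 FPKM, and 10 more passed with one of 0.1 FPKM. No direction reversed in any of these settings. A pseudocount, a filter or a fold cannot change which of 2 groups is higher. For a ratio of 2 groups, only the scaling could thus have reversed a direction. The tables hold neither read counts nor the spread between libraries, so no error could be set beside differences near 1.5-fold or values near 1 FPKM.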
